A study of Rattus norvegicus with 6 samples.

Results

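The unfolded protein response and the chaperones of the endoplasmic reticulum (ER) were followed here through 34 genes listed by name. Probe sets with a single gene symbol in the array's annotation were found for 31 of them, among 14506 genes measured in all, and each of the 31 had 1 probe set. They were grouped into 8 sensors and factors, 17 chaperones and folding or translocation proteins, and 6 genes under ER-associated degradation. The first group also holds Asns and Chac1, which are enzymes, and the last holds Wfs1, an ER membrane protein. Ern1, Edem1 and Derl2 are not analysed here. RNA was taken from pancreatic cells of male Wistar rats, enriched for beta cells by flow sorting on light scatter and autofluorescence, and described in the series as primary cultured. The immature group held 3 preparations from suckling pups of postnatal day 20, and the mature group 3 preparations from young adults of about 2 months, weighing 250 to 280 g. The labels give no genotype or treatment. They number the preparations as biological replicates without giving the count of animals behind each or the time in culture. The study set immature against mature cells to find the expression changes of beta cell maturation.

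Secretory cells send their products through the ER, where chaperones such as BiP (the product of Hspa5) hold nascent chains and disulfide isomerases of the Pdia family join their cysteines. When unfolded protein accumulates, the membrane sensors PERK (Eif2ak3), IRE1 (Ern1) and ATF6 respond: PERK phosphorylates eIF2 alpha, which slows translation and favours that of ATF4, IRE1 splices the mRNA of Xbp1, and ATF6 is cut to release a transcription factor. The factors then raise genes of folding, of degradation of misfolded proteins through the membrane (ERAD) and, by way of ATF4, of amino acid supply. Beta cells, which make large amounts of proinsulin, depend on this system, and so do the acinar cells of the exocrine pancreas.

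The values are log2 signals, so a difference of 1 is a 2-fold change, and the 3 arrays of a group are given 1 by 1 or by their range. Adult was tested against day 20 with limma across all 14506 genes, with Benjamini-Hochberg adjustment and a threshold of 0.05. No member moved by as much as 2-fold. Signals of the members lay between 7.77 and 13.67 on single arrays, and the first quartile of an array between 4.91 and 4.94, and no detection calls were used. As background, bright array signals saturate, so that differences between them come out smaller than those of the RNA.

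Adult preparations had more signal of the sensor Eif2ak3, the factor Xbp1, the co-chaperone Dnajb9, and Derl3 and Wfs1 of the degradation group. They had less of Creld2, Sdf2l1, Dnajb11, Manf and Pdia4, which all encode luminal folding proteins or BiP partners. The main chaperones Hspa5, Hsp90b1, Canx and Calr did not pass the test. Of 31 members, 5 were higher in adult, against 11.8% of all genes, and 5 were lower, against 10.9%. As shares of the members these are 16.1% and 16.1%, and 32.3% in either direction against 22.7% of all genes. The median log2 difference of the members was -6e-04, beside 0.01 over all genes, and the median size without sign was 0.23, beside 0.16. The 3 arrays of each age did not overlap for 21 of the 31 members, against 39.6% of all genes, and 11 of these 21 did not pass the test. By role, 2 of 8 sensors and factors were higher and 0 lower, and 1 of 17 chaperones was higher and 5 lower. Of the 6 genes of the degradation group 2 were higher (Derl3 and Wfs1) and 0 lower. In the sensors and factors 3 members had an unadjusted p under 0.05, in the chaperones 10 and in degradation 3, which is 51.6% of the members beside 34.2% of all genes. All 10 members that passed also did so when any single array of the 6 was omitted, and the largest adjusted p of those fits was 0.048 (Manf).

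**Figure D1:**
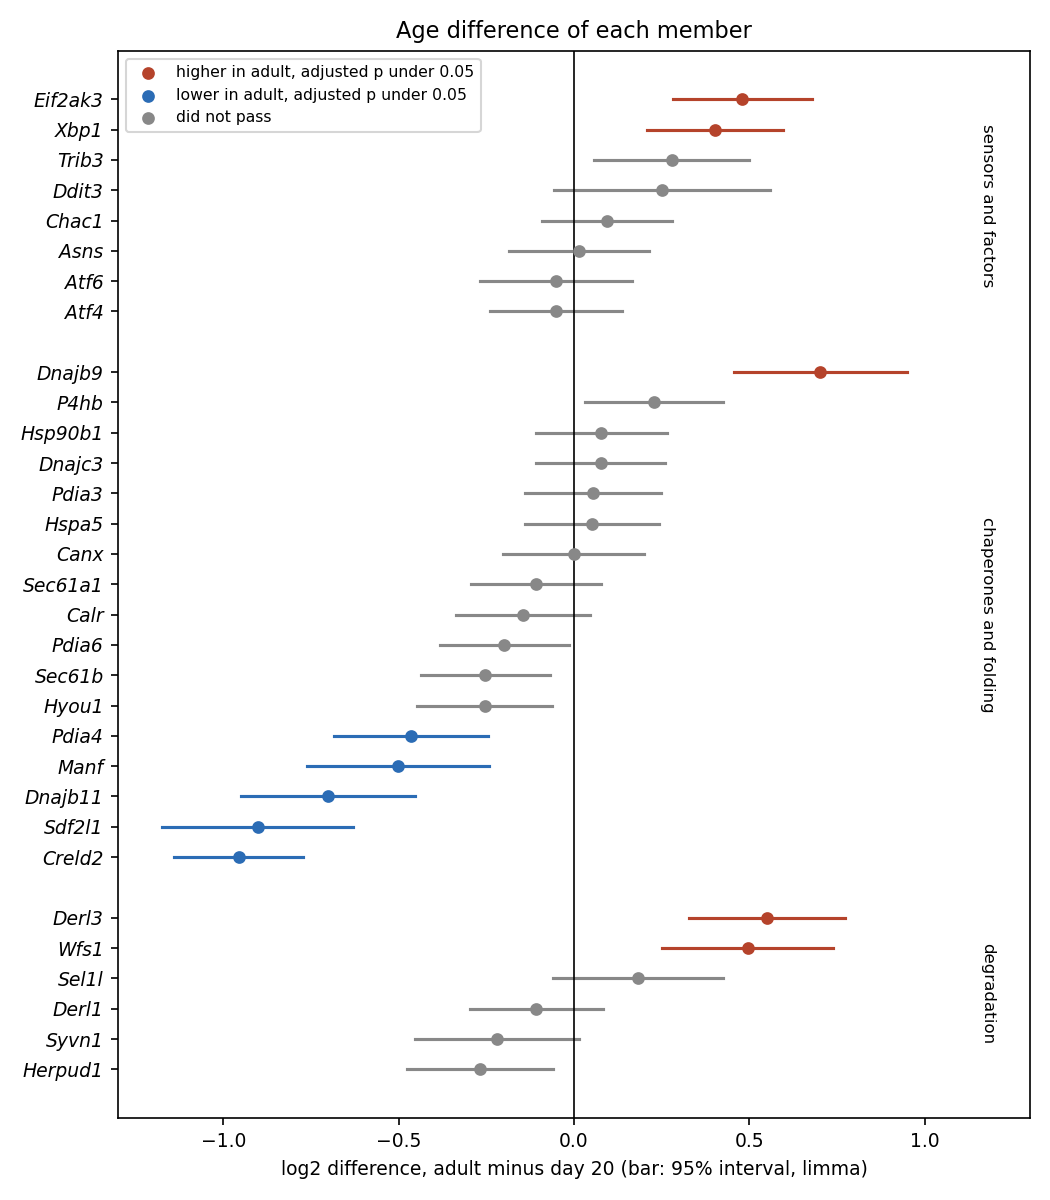
Log2 difference, adult minus day 20, of each of the 31 members with its 95% interval from limma, grouped by role (y axis: gene). Red marks members higher in adult and blue members lower in adult at an adjusted p under 0.05, and grey those that did not pass; the lower calls lie in the chaperone group, from -0.96 (Creld2) to -0.47 (Pdia4).

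Markers of some of the cell types present moved with age over the same arrays. Beside the counts below, 11.8% of all genes were higher and 10.9% lower in adult. The mean of 12 pan-endocrine genes lay between 10.55 and 11.24 in adult and between 9.39 and 10.40 at day 20, and 6 of 8 measured beta cell markers were higher in adult. Digestive enzymes of acinar cells were bright in both groups, with array means of 13.94 to 14.01 in adult and 13.76 to 13.99 at day 20. Of 23 such genes 2 passed, both higher in adult, which is 8.7%, beside 22.7% of all genes in either direction. Their means lie near the array maxima of 14.47 to 14.71, where saturation can make differences come out smaller. A second acinar list held transcription factors and other acinar genes, among them Erp27, which is also in the list of other folding and redox genes. Its means were 11.43 to 11.63 in adult and 11.58 to 11.76 at day 20, with 3 of 9 genes lower (Nr5a2, Gata4 and Ptf1a). Of these, Ptf1a did not pass when any of the 3 day 20 arrays was omitted (adjusted p up to 0.097). Endothelial markers were lower in adult for 10 of 10 (means of 5.60 to 5.70 against 6.66 to 7.32), fibroblast and stellate markers for 6 of 11 (6.34 to 6.54 against 7.14 to 7.44), leukocyte markers for 2 of 12 (5.39 to 5.46 against 5.74 to 5.89), and hormone and factor genes of other islet cells for 5 of 7 (8.48 to 8.78 against 9.50 to 9.82). Of 10 duct markers 1 was higher (Epcam, which passed without adult replicate 3 and with no other single array omitted) and 2 lower (8.79 to 8.89 against 8.92 to 9.23). In such bulk preparations, fewer cells of a type and less RNA per cell cannot be told apart. Pearson's r across genes, which are not independent replicates, was 0.992 to 0.997 between arrays of an age and 0.972 to 0.983 between ages.

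Of the members with a promoter entry, 11 of 25 carried an element of the ER stress response described next, and 13 carried any element searched. They are shown here because genes with the same element moved in opposite directions. The ER stress response element (ERSE), through which ATF6 and XBP1 act, was searched as CCAAT and CCACG with any 9 bases between them, its compact form ERSE-II as ATTGG and CCACG with any 1 base between them, the core bound by XBP1 and ATF6 (UPRE core) as TGACGTGG, and the composite C/EBP-ATF element that ATF4 uses as TGATGNAA. Both strands were searched from 250 bases before to 50 after the annotated gene start (RefSeq, build GRCr8), where 25 of the 31 members had an entry; Atf6, Pdia3, Pdia6, Sec61a1, Derl1 and Manf did not. The ERSE was found in 8 of the 25 and in 0.0657% of all 33469 promoters of this length, and the ERSE-II in 3 and 0.0508%. Because the members were listed as genes of this response, these shares are no test of enrichment. The UPRE core was found in 1 (Hyou1), overlapping the ERSE-II that lies farther from the start, and in 0.595% of all promoters, and the C/EBP-ATF element in 3 (Chac1, Trib3 and Herpud1) and in 3.98%. Each sequence below runs on the strand on which the element reads as searched, with its fixed bases in capitals.
Hspa5: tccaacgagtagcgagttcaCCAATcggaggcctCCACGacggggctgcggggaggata
Xbp1: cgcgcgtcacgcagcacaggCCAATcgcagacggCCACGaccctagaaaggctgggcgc
Derl3: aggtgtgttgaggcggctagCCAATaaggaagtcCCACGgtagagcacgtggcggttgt
Creld2: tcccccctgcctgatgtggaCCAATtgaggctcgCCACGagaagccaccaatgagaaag
Dnajb11: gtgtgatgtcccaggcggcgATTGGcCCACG
Hyou1: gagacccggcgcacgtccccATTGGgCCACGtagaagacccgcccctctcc
Herpud1: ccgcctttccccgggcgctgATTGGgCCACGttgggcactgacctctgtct
Trib3: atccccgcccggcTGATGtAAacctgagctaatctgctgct
Chac1: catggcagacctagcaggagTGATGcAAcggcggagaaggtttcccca
These windows lie upstream of the gene starts, that of Dnajb11 reaching the first base. The element of Hspa5 (chr3:38452953-38453011, plus strand) covers bases -43 to -25, that of Xbp1 (chr14:84604538-84604596, plus strand) -65 to -47, that of Derl3 (chr20:12766581-12766639, plus strand) -154 to -136 and that of Creld2 (chr7:121789219-121789277, minus strand) -145 to -127. The ERSE-II of Dnajb11 (chr11:91672800-91672830, minus strand) covers -10 to 1, that shown for Hyou1 (chr8:53602774-53602824, minus strand) -88 to -78, with another at -188 to -178, and that of Herpud1 (chr19:10614801-10614851, minus strand) -124 to -114. The C/EBP-ATF elements lie at -21 to -14 in Trib3 (chr3:161275534-161275574, plus strand) and at -167 to -160 in Chac1 (chr3:126795944-126795991, minus strand). An ERSE or ERSE-II was found in 2 of the 5 members that rose (Xbp1 and Derl3), in 2 of the 4 that fell and had an entry (Creld2 and Dnajb11), and in 7 of the 16 that did not pass and had one (Hspa5, Hsp90b1, Dnajc3, Calr, Canx, Hyou1 and Herpud1). A match describes the letters only and is not a measured binding site.

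**Figure D2:**
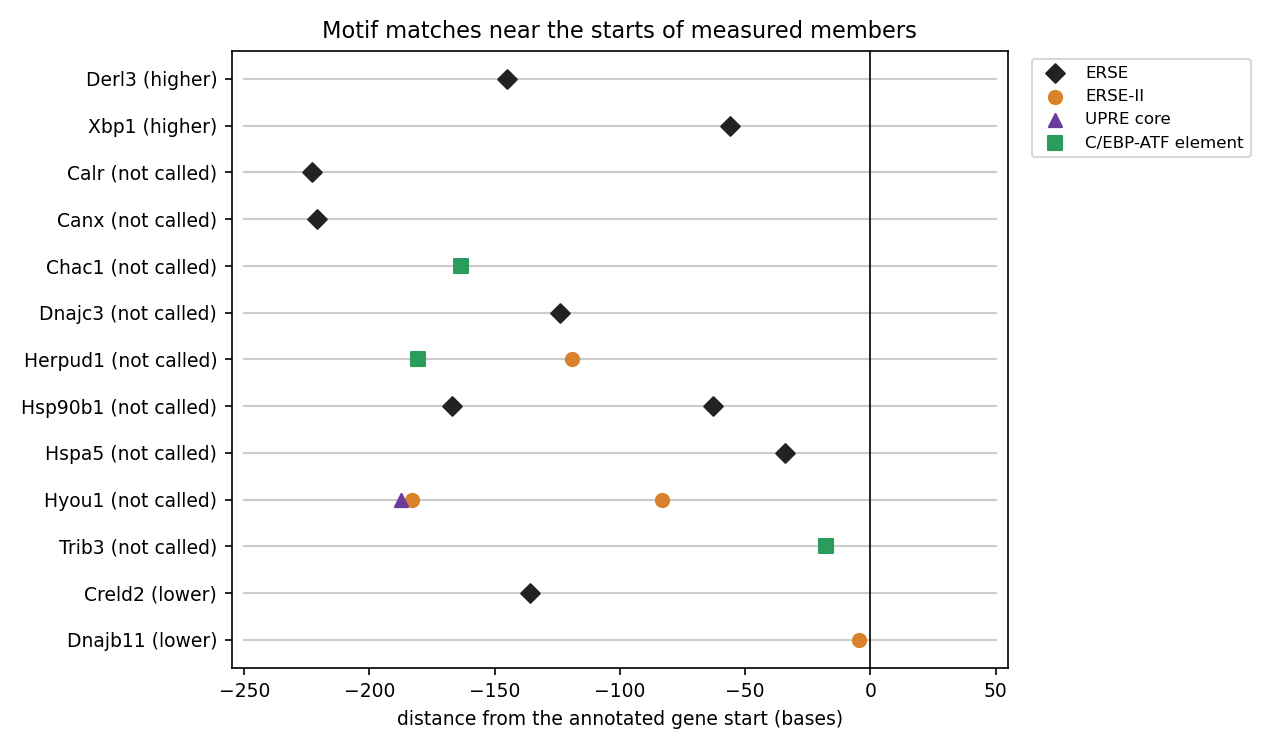
Positions of the searched elements (x axis: distance in bases from the annotated gene start, by element centre) in the 13 measured members with at least 1 match, grouped by call (higher in adult, not called, lower in adult). Diamonds (ERSE) stand on rows of members that rose, fell or did not pass.

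Among the sensors, Eif2ak3, which encodes PERK, was higher in adult. Its log2 signals were 11.08, 11.24 and 11.18 in adult and 10.75, 10.69 and 10.61 at day 20. The lowest adult array stood above the highest day 20 array, and the difference was 0.48 ± 0.09 (SE), or 1.40-fold (limma adjusted p = 0.0055). Atf6, the sensor that is itself cut into a factor, gave 10.31, 10.07 and 10.11 in adult and 10.28, 10.18 and 10.17 at day 20. Its groups overlapped, and its difference of -0.05 had a 95% interval of -0.27 to 0.17 (limma adjusted p = 0.77). Xbp1, whose spliced mRNA encodes the active factor of the IRE1 branch, had 13.30, 13.37 and 13.47 in adult and 12.97, 13.01 and 12.95 at day 20. All adult arrays were above all day 20 arrays, by 0.40 ± 0.09 (SE) or 1.32-fold (limma adjusted p = 0.010), at signals high on the scale. The Xbp1 probe set gives 1 value for the gene and does not report the share of spliced mRNA.

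No member of the ATF4 branch, which lies below PERK, passed the test. Atf4, the factor whose translation rises when eIF2 alpha is phosphorylated, had 11.56, 11.53 and 11.53 in adult against 11.66, 11.60 and 11.52 at day 20, a difference of -0.05 with an interval of -0.24 to 0.14. Its control is largely on translation, which arrays do not measure. Asns, the asparagine synthetase and a classic ATF4 target, differed by 0.01 (-0.18 to 0.21), with signals of 11.81 to 11.97 in adult and 11.79 to 11.91 at day 20. Chac1, a glutathione-degrading enzyme induced through ATF4, differed by 0.09 (-0.09 to 0.28). Its groups did not overlap (11.73 to 11.77 against 11.60 to 11.72), but the difference did not pass (limma adjusted p = 0.49). Ddit3, which encodes the pro-apoptotic factor CHOP, had 9.71, 9.74 and 9.83 in adult and 9.80, 9.49 and 9.24 at day 20. The day 20 arrays of Ddit3 spread over 0.56 and reached into the adult range, so that its difference of 0.25 was not separated from the spread (limma adjusted p = 0.24). Trib3, a pseudokinase induced by ATF4 and CHOP, had 8.22, 8.07 and 8.18 in adult against 7.77, 8.02 and 7.84 at day 20. The groups did not overlap, and the difference of 0.28 missed the threshold (limma adjusted p = 0.074).

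**Figure D3:**
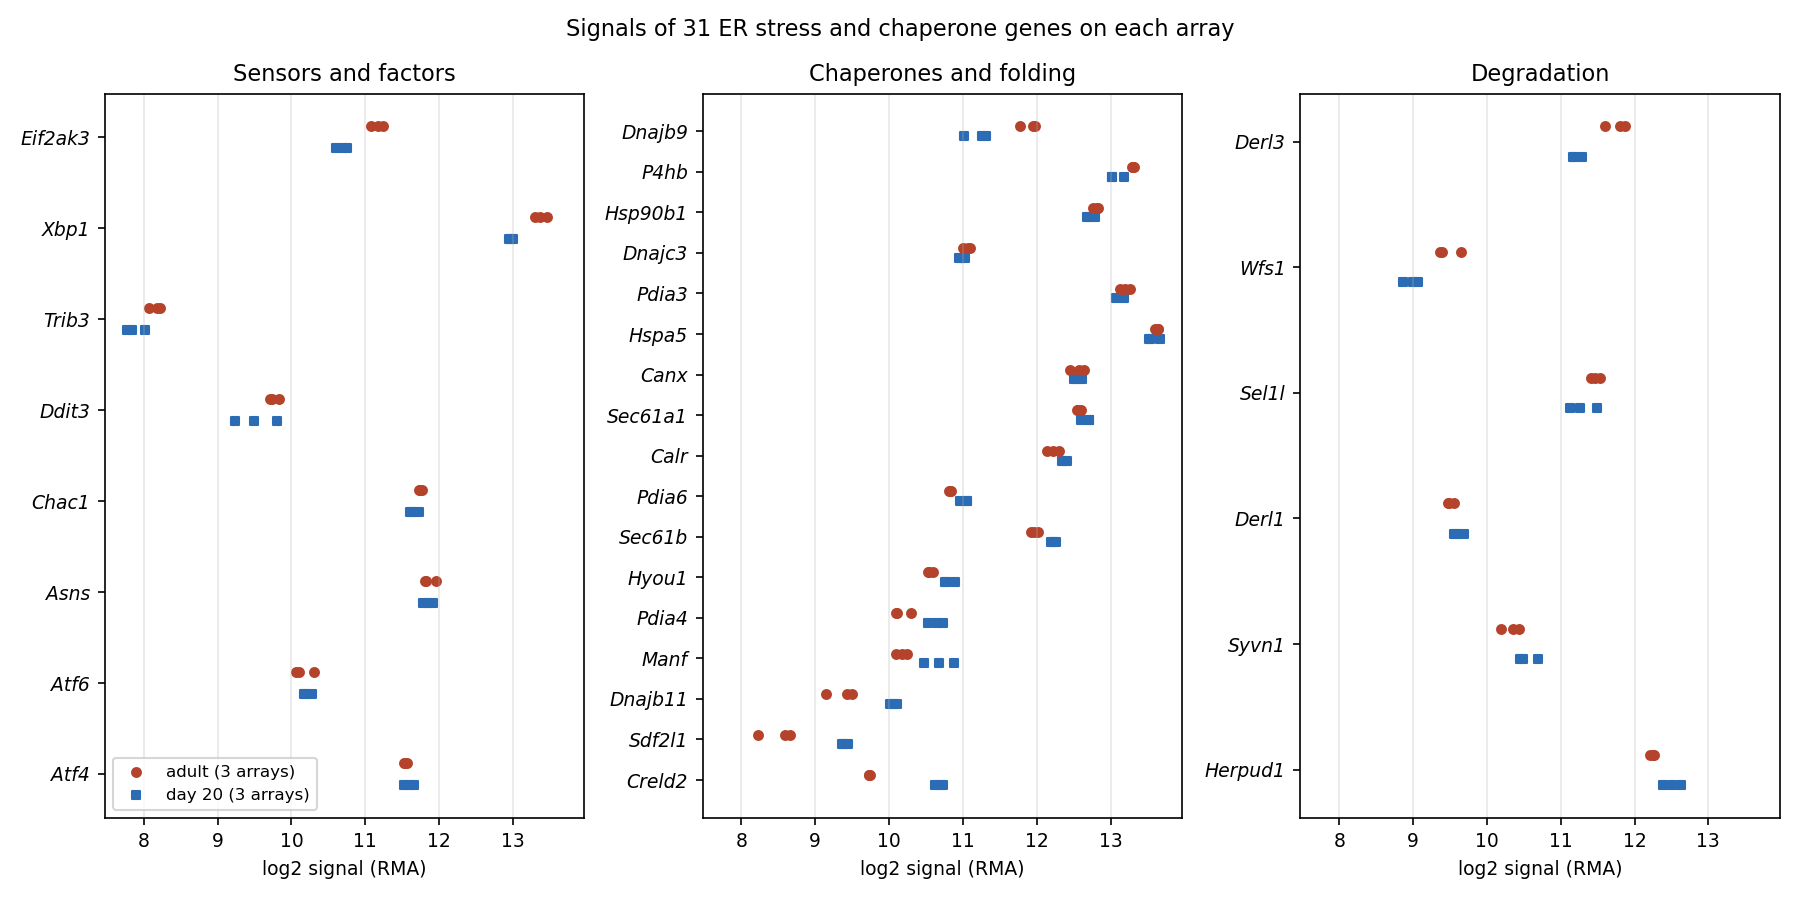
Log2 signals (x axis) of the 31 members on each of the 6 arrays, in 3 panels by role, with adult arrays as red circles and day 20 arrays as blue squares; genes run from the largest rise at the top to the largest fall at the bottom of each panel. Creld2 lies at 9.72 to 9.73 in adult and at 10.62 to 10.73 at day 20, while the signals of Hspa5, Pdia3 and Canx overlap.

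Of the 17 chaperones, 11 did not pass. Hspa5, the central chaperone BiP, had 13.60, 13.65 and 13.64 in adult and 13.67, 13.54 and 13.52 at day 20. The groups overlapped, and the difference was 0.05 with a 95% interval of -0.14 to 0.24. Hsp90b1, the ER form of HSP90 known as GRP94, differed by 0.08 (-0.11 to 0.26), and Canx, the lectin chaperone calnexin, by -6e-04 (-0.20 to 0.20). Calr, the soluble relative calreticulin, was 12.14 to 12.30 in adult and 12.35 to 12.41 at day 20. Its groups did not overlap, and its difference of -0.14 did not pass (limma adjusted p = 0.27). The 95% intervals of 6 members that did not pass (Atf4, Asns, Hspa5, Pdia3, Dnajc3 and Canx) lay inside a 1.2-fold change in either direction, which is 0.26 on this log2 scale. Of these, Hspa5 and Pdia3 had signals above 13 on every array.

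The J-domain co-chaperones, which hand substrates to BiP and set off its ATP cycle, moved apart. Dnajb9, known as ERdj4 and as an Xbp1 target, had 11.97, 11.95 and 11.77 in adult and 11.01, 11.26 and 11.32 at day 20. Every adult array was above every day 20 array, by 0.70 ± 0.11 (SE) or 1.63-fold, the largest rise among the members (limma adjusted p = 0.0025). Dnajb11, known as ERdj3, had 9.14, 9.43 and 9.50 in adult and 10.01, 10.06 and 10.11 at day 20. Here every adult array was below every day 20 array, and the signal was 1.63-fold higher at day 20 (difference -0.70 ± 0.11, SE, limma adjusted p = 0.0026). Dnajc3, the co-chaperone p58IPK, did not pass, with 11.00 to 11.09 in adult and 10.94 to 11.02 at day 20 and a difference of 0.08 (-0.11 to 0.26). The interaction between age and gene was not tested, but the intervals of Dnajb9 (0.46 to 0.95) and Dnajb11 (-0.95 to -0.45) lie on opposite sides of 0.

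Among partners of BiP and other luminal proteins, Creld2, Sdf2l1 and Manf were lower in adult. Creld2, a protein of the ER lumen with EGF-like domains that is induced by ER stress, had 9.72, 9.73 and 9.73 in adult and 10.70, 10.62 and 10.73 at day 20. It was 1.94-fold higher at day 20, with a difference of -0.96 ± 0.08 (SE) and the smallest adjusted p of the members (limma adjusted p = 1.7e-04). Sdf2l1, which forms a complex with Dnajb11 in the lumen, had 8.22, 8.65 and 8.59 in adult and 9.37, 9.44 and 9.36 at day 20, and was 1.87-fold higher at day 20 (difference -0.90 ± 0.12, SE, limma adjusted p = 0.0013). In both Sdf2l1 and Dnajb11, adult replicate 1 was the lowest array, and without it the differences still passed. Manf, a stress-induced protein that binds BiP and is also secreted, had 10.10, 10.18 and 10.25 in adult and 10.88, 10.68 and 10.47 at day 20. Its day 20 arrays spread over 0.41 and all stood above the adult arrays, and the signal was 1.42-fold higher at day 20 (difference -0.50 ± 0.11, SE, limma adjusted p = 0.014). Hyou1, a large HSP70 relative that exchanges the nucleotide of BiP, gave 10.52 to 10.60 in adult and 10.76 to 10.90 at day 20. These ranges did not overlap, and the difference of -0.26 missed the threshold (limma adjusted p = 0.062).

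The disulfide isomerases also differed among themselves. Pdia4, known as ERp72, had 10.30, 10.11 and 10.10 in adult and 10.53, 10.65 and 10.72 at day 20. It was 1.38-fold higher at day 20, with no overlap (difference -0.47 ± 0.10, SE, limma adjusted p = 0.0094). Pdia6 had 10.80 to 10.84 in adult against 10.96 to 11.06 at day 20 and did not pass (difference -0.20, limma adjusted p = 0.12). P4hb, the founding isomerase PDI, had 13.30, 13.32 and 13.29 in adult and 13.19, 13.02 and 13.01 at day 20. Its difference was positive, at 0.23, and did not pass (limma adjusted p = 0.096), though it did under 3 other settings, with adjusted p of 0.029 to 0.049. Pdia3, the isomerase ERp57 that works with calnexin and calreticulin, differed by 0.05 (-0.14 to 0.25).

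The translocon subunits, which form the channel by which chains enter the ER, had small negative differences. Sec61b had 11.93 to 12.02 in adult and 12.19 to 12.26 at day 20, a difference of -0.25 (limma adjusted p = 0.053). Sec61a1, the pore subunit, had 12.54 to 12.59 against 12.61 to 12.71, a difference of -0.11 (limma adjusted p = 0.41). Neither gene's groups overlapped and neither passed the test. Sec61b passed with the variance trend and with genes of low signal removed (adjusted p = 0.015 and 0.034).

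In the degradation group, Derl3, a derlin of the ERAD channel and a known Xbp1 target, had 11.60, 11.87 and 11.81 in adult and 11.17, 11.28 and 11.18 at day 20. All adult arrays were higher, by 0.55 ± 0.10 (SE) or 1.46-fold (limma adjusted p = 0.0049). Its relative Derl1 had 9.48 to 9.55 in adult and 9.56 to 9.69 at day 20, a difference of -0.11 that did not pass (limma adjusted p = 0.43). Wfs1, the ER membrane protein wolframin, whose loss causes a syndrome with diabetes, had 9.65, 9.40 and 9.36 in adult and 8.99, 8.86 and 9.07 at day 20. It was 1.41-fold higher in adult without overlap (difference 0.50 ± 0.11, SE, limma adjusted p = 0.011). Adult replicate 1 was its highest array, and without that array the difference still passed.

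The ubiquitin ligase complex of ERAD did not pass. Sel1l, the adaptor of the ligase HRD1, had 11.54, 11.47 and 11.41 in adult and 11.26, 11.49 and 11.13 at day 20, and day 20 replicate 2 lay within the adult range (difference 0.18, limma adjusted p = 0.28). Syvn1, which encodes HRD1 itself, had 10.19, 10.36 and 10.43 in adult against 10.69, 10.50 and 10.45 at day 20. Its groups were separated by a narrow gap, with a difference of -0.22 (limma adjusted p = 0.17). Herpud1, a membrane protein that joins the ligase and is strongly induced by ER stress, had 12.21, 12.27 and 12.25 in adult and 12.63, 12.51 and 12.39 at day 20. The groups did not overlap, and the difference of -0.27 missed the threshold (limma adjusted p = 0.067), which it passed without day 20 replicate 3 (adjusted p = 0.049).

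The cell type markers above were set beside the 10 members that passed. Across the 3 adult arrays the pan-endocrine mean spread over 0.68, and the 10 members over 0.01 (Creld2) to 0.43 (Sdf2l1), with Dnajb11 at 0.36 and Wfs1 at 0.29. Across the 3 day 20 arrays the same mean spread over 1.01, and the 10 members over 0.06 (Xbp1) to 0.41 (Manf). On adult replicate 1, the array with the highest pan-endocrine mean, Wfs1, Dnajb9 and Pdia4 had their highest adult value, and Sdf2l1, Dnajb11, Manf, Creld2, Derl3, Xbp1 and Eif2ak3 their lowest. Day 20 replicate 2 had the lowest pan-endocrine mean. There Wfs1 and Creld2 had their lowest day 20 value, and Sdf2l1, Derl3 and Xbp1 their highest. Dnajb9, Pdia4, Dnajb11, Manf and Eif2ak3 lay between their other day 20 values on that array. With the pan-endocrine mean added to the model as a covariate, all 10 kept their direction and 3 still passed (Eif2ak3, Derl3 and Creld2, limma adjusted p = 0.048, 0.023 and 0.0047). Calls over all genes fell from 3294 to 773 with the same covariate. The 10 differences were then 48.3% (Wfs1) to 134% (Derl3) of those without it, with a median of 99.4%. The pan-endocrine mean did not overlap between the ages (10.55 to 11.24 in adult, 9.39 to 10.40 at day 20). That fit therefore cannot separate endocrine content from age. Neither the kept differences nor the lost calls show whether endocrine content plays a part. With the mean of the second acinar list as a covariate all 10 kept their direction and 8 passed, beside 2018 of all genes. Manf and Wfs1 did not pass there (limma adjusted p = 0.11 and 0.080). The mean of that list differed by -0.14 between the ages and that of the digestive enzymes by 0.12. With acinar lists that moved in opposite directions, this fit cannot show whether acinar content plays a part. The part of endothelial, stromal and other islet cells in these differences was not tested.

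**Figure D4:**
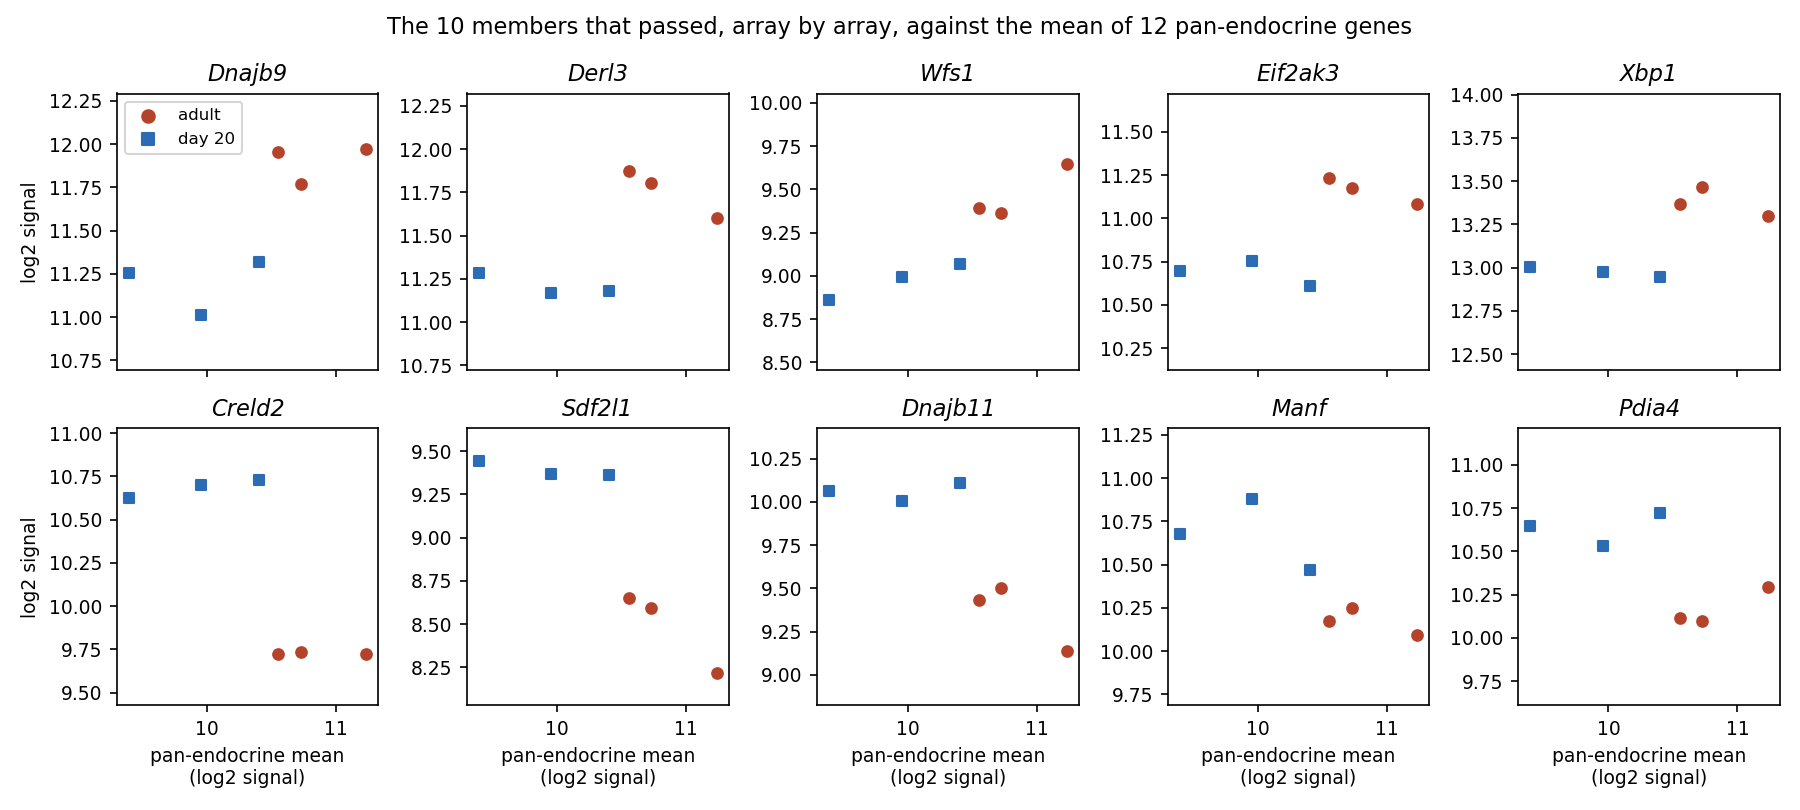
Log2 signal of each of the 10 members that passed (y axis, each panel spanning the same range of log2 units) against the mean log2 signal of 12 pan-endocrine genes (x axis) on each array; red circles are adult and blue squares day 20 arrays. Over the adult arrays, where the pan-endocrine mean runs from 10.55 to 11.24, Creld2 runs from 9.72 to 9.73 and Sdf2l1 from 8.22 to 8.65.

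Other genes of the pathway, in 6 lists of 214 genes of which 189 were measured, were lower in adult more often than higher. Of the 189, 18 were higher and 45 lower in adult, or 9.52% and 23.8%, beside 11.8% and 10.9% of all genes, and their median log2 difference was -0.06. Many of these calls were lost in fits with 1 array omitted, which also have fewer arrays to test with. Over all genes such fits called 2159 to 2925, beside 3294 with every array. The lowest and highest counts with 1 array omitted are given beside those that moved by over 1.5 times. By list, the lower genes were most numerous among genes of amino acid supply and tRNA charging linked to ATF4, with 19 of 34 lower and 1 higher and a median of -0.44. Phgdh, the first enzyme of serine synthesis, had 8.73, 8.75 and 9.11 in adult and 10.11, 9.95 and 9.87 at day 20 and was 2.16-fold higher at day 20 (limma adjusted p = 5.5e-04). Shmt2, which passes a carbon unit from serine to folate in mitochondria, had 8.75, 8.93 and 8.98 against 9.84, 10.05 and 10.02 and was 2.12-fold higher at day 20 (limma adjusted p = 2.7e-04). For both genes every day 20 array stood above every adult array, while the ages overlapped for Atf4 and Asns. The gene that rose was Stc2, which encodes the secreted glycoprotein stanniocalcin 2, by 0.49 (limma adjusted p = 0.010).

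Among 28 genes of translocation and glycosylation, 7 were lower (6 to 7 with 1 array omitted) and 1 higher in adult. As shares these are 25% and 3.57%, beside 10.9% and 11.8% of all genes. Ssr2, a subunit of the translocon-associated protein complex, was 1.73-fold higher at day 20 (11.90 to 12.08 in adult against 12.73 to 12.85, limma adjusted p = 5.5e-04). Sec11a, of the signal peptidase, was 1.46-fold higher at day 20. Sec62, which helps chains enter after translation, rose by 0.32, a call that held without adult replicate 1 and was lost without any other single array (adjusted p up to 0.15). Of 36 other folding and redox genes, 5 were lower (2 to 4 with 1 array omitted, 2 without adult replicate 3, 3 without adult replicate 2 or day 20 replicate 2), among them the chaperone-like Erp29 and the prolyl isomerase Fkbp11 (1.51- and 1.42-fold higher at day 20). Another 3 were higher, among them Ero1a, the oxidase that recharges disulfide isomerases (1.46-fold), and Qsox1, a sulfhydryl oxidase (1.39-fold). In either direction 22.2% of this list passed, which is near the 22.7% of all genes. The call of Ero1a was lost without day 20 replicate 2 (adjusted p = 0.055), and that of Qsox1 when day 20 replicate 1 or either of adult replicates 2 and 3 was omitted (adjusted p up to 0.061).

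In the list of other degradation genes, 6 of 37 rose in adult and 3 fell, and the median was 0.10. In either direction that is 24.3% of the list, near the 22.7% of all genes. With 1 array omitted 3 to 5 rose (3 without adult replicate 2 or 3) and 1 or 2 fell (2 without adult replicate 1). Herpud2, a relative of Herpud1, had 10.95, 10.82 and 10.86 in adult and 9.91, 10.08 and 10.11 at day 20 and was 1.80-fold higher in adult (limma adjusted p = 5.1e-04). Yod1, a deubiquitinase of ERAD, was 1.53-fold higher. Ccdc47 and Nsfl1c fell by 0.39 and 0.32, and Nsfl1c kept its call only without adult replicate 1 among the fits that left out an array (adjusted p up to 0.096). Of 24 genes of ER exit and retrieval, 3 were higher and 4 lower, or 12.5% and 16.7%, beside 11.8% and 10.9% of all genes. With 1 array omitted 1 to 3 were higher (1 without adult replicate 1 or day 20 replicate 2) and 1 to 3 lower (1 without adult replicate 2 or day 20 replicate 2, 3 without day 20 replicate 3, 2 otherwise), and Surf4, chosen after its values were seen, lost its call in all 6 such fits. Tango2 was 1.92-fold higher in adult (limma adjusted p = 5.4e-04), and Sec24a, a cargo-binding subunit of the COPII coat, 1.36-fold, which did not pass when adult replicate 1 or either of day 20 replicates 1 and 2 was omitted (adjusted p up to 0.10). Sec13, a COPII coat protein, was 1.51-fold higher at day 20, and Lman1, a cargo receptor of this step, 1.28-fold, which did not pass when day 20 replicate 2 or either of adult replicates 2 and 3 was omitted (adjusted p up to 0.065). Of 30 other stress factors 4 were higher and 7 lower, or 13.3% and 23.3%, beside 11.8% and 10.9% of all genes. With 1 array omitted 1 to 5 were higher (1 without adult replicate 3 or day 20 replicate 2, 2 without adult replicate 2 or day 20 replicate 3) and 4 or 5 lower (4 without adult replicate 3 or day 20 replicate 2 or 3). Eif2ak1, another kinase of eIF2 alpha, was 1.62-fold higher in adult (9.88 to 10.08 against 9.14 to 9.38, limma adjusted p = 0.0018). Mbtps2, a protease that cuts ATF6, was 1.54-fold higher, which did not pass when day 20 replicate 2 or either of adult replicates 1 and 3 was omitted (adjusted p up to 0.076). Traf2, an adaptor of IRE1, and Eif2b2, a subunit of the exchange factor of eIF2, were 1.48- and 1.47-fold higher at day 20.

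**Figure D5:**
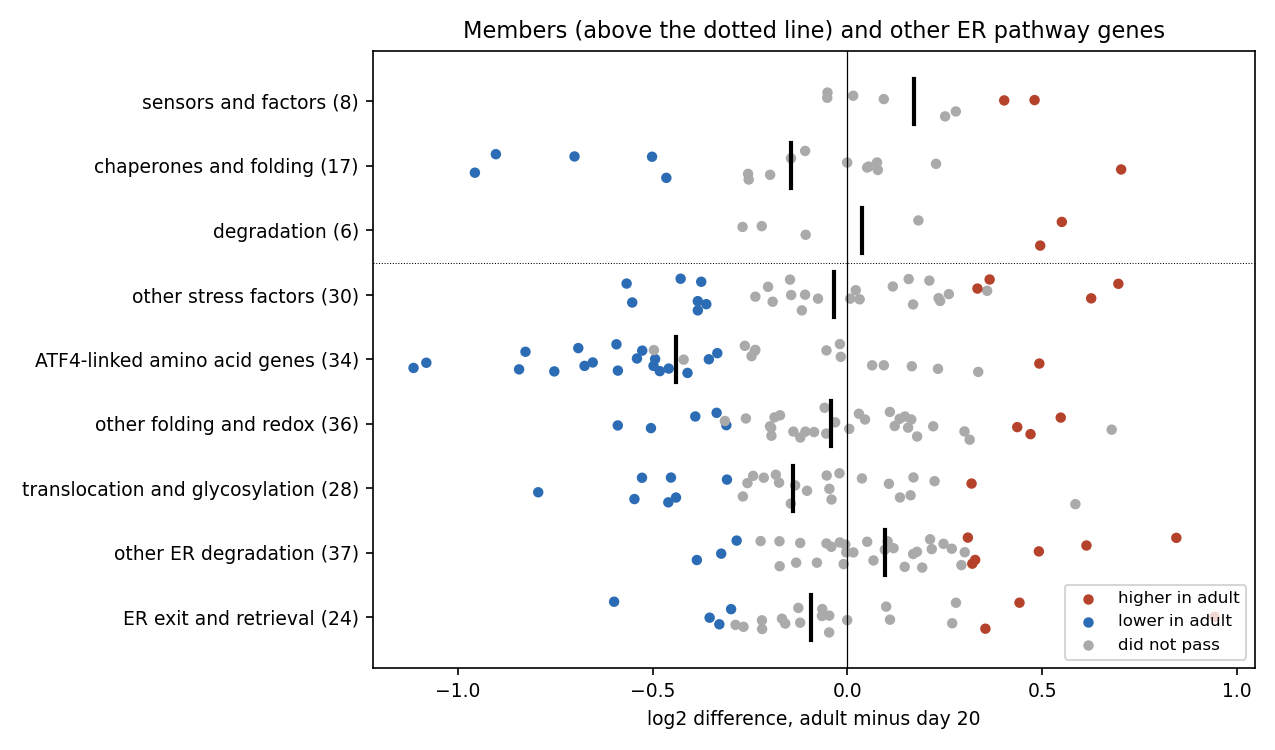
Log2 difference, adult minus day 20 (x axis), of each gene in the 3 groups of members (above the dotted line) and in 6 lists of other ER pathway genes (y axis, number measured in brackets); red and blue points passed the test, grey points did not, black bars are medians and vertical scatter within a row has no meaning. The list linked to ATF4 has its median at -0.44, while that of other ER degradation lies at 0.10.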

How the data were processed

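The deposited table held log2 signals of 29214 probe sets on 6 arrays, which the authors made, per the submitters' processing notes, by RMA. This method corrects background, quantile-normalizes and summarizes probes, and so hides shifts shared by most genes. The version of the software is not given in the sources used here. The log2 scale was taken from the values. Probe sets with 1 symbol (15310) took gene names from the array annotation, brought up to date through Entrez identifiers; 323 with several symbols and 13581 not listed are unnamed here. For 527 of 14506 genes the brightest of several probe sets was used. Adult was compared with day 20 in limma 3.58.1 (lmFit, then eBayes; two-sided tests; R 4.3.3), without a filter on signal. Groups came from sample titles. Samples are called biological replicates. The eBayes step draws the variance of each gene toward a value shared across all genes. The p-values, SE and intervals given here therefore reflect the spread between a gene's own arrays only in part. For Creld2, with standard deviations of 0.006 in adult and 0.056 at day 20, the SE of the difference was 0.081. The procedure was tested on simulated data with 50 genes at each size of change and 14306 unchanged. It called 2% of log2 changes of 0.25, 42% of 0.5, 90% of 1 and 100% of 2, and 0.0559% of unchanged genes. Changes near 0.25 were thus mostly missed there, and a member that did not pass is not shown to be unchanged. More genes passed in the deposited data (3294), so these shares need not hold for them. The members and all lists were chosen with earlier results of these data known. Named genes were all measured members, and the 2 largest rises and 2 largest falls past the threshold in each other pathway list; Surf4, the markers named and further genes in the closing section were picked after their values were seen. Alternatives were a second quantile normalization, median centring, removal of the 33.3% of genes with the lowest signal, a variance trend with robust fit, the mean of probe sets, array weights, a replicate block, a test against 1.2-fold, both marker covariates and omitted arrays. Python 3.11.15, pandas 2.3.3 and matplotlib 3.10.9 were also used.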

Additional observations from a re-analysis of the deposited data

How the results depend on the processing

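Without each single array the members gave 5 higher and 5 or 6 lower, all genes 2159 to 2925 calls (lowest without day 20 replicate 2), and the other pathway genes 9 to 16 higher (9 without adult replicate 3 or day 20 replicate 2) and 32 to 38 lower. Without adult replicate 1 and day 20 replicate 2 together, chosen after seeing the data, there were 4 and 4 members (Wfs1 and Manf lost), 1861 genes, and 7 and 26 other pathway genes. Members lower in adult numbered 8 with genes of low signal removed and 8 with a variance trend and robust fit, with Hyou1, Sec61b and Herpud1 added. Array weights gave 6 and 7 members and 3806 genes, a second quantile normalization 6 and 5 and 3311, median centring 5 and 5 and 3374, and the mean of probe sets 5 and 5 and 3297. Against a 1.2-fold change, 1 member was higher (Dnajb9) and 3 lower (Dnajb11, Sdf2l1 and Creld2), with 933 genes and 3 and 8 other pathway genes. With the pan-endocrine covariate there were 2 and 1 members, 773 genes and 2 and 8 other pathway genes. With the acinar covariate there were 2018 genes. Each covariate takes a degree of freedom from 6 arrays. The pan-endocrine mean also did not overlap between the ages, so its fit cannot separate it from age. The labels do not say that replicate numbers pair the samples. Correlations of same-numbered deviations were -0.187, 0.194 and -0.211, and those of other pairs ran from -0.295 to 0.371. Deviations from a mean of 3 arrays depend on each other, so these values cannot decide on pairing. With the replicate block 5 and 5 members passed, the same 10 genes, and 2609 genes in all. No difference of the 10 members and 63 other pathway genes that passed changed sign under any setting run; of 46 markers that passed, that of Scg3 did. The arrays gave no detection calls, so signal over background was not measured.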

Other observations

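Within the list linked to ATF4, grouped by function after the values were seen, the aminoacyl-tRNA synthetases, which charge tRNAs for translation, made up much of the lower genes: 9 of 12 were lower in adult, with log2 differences of the 12 from -0.69 (Tars1) to 0.09 and a median of -0.43. With 1 array omitted 6 to 9 were lower (6 without day 20 replicate 2); Yars1 lost its call in 5 of 6 such fits, Sars1 in 4 and Lars1 in 1. Of 5 enzymes of serine synthesis and of one-carbon transfer from it, 3 were lower, and the 5 ran from -1.11 (Phgdh) to -0.24. Of 8 amino acid transporters 2 were lower, with a median of -0.04. Among the other stress factors, Eif2s1 was the only subunit of eIF2 listed, beside Eif2b1 to Eif2b5 of its exchange factor. Of these 6, also picked after the values were seen, 4 were lower. They were Eif2s1 (-0.38), Eif2b1 (-0.38), Eif2b2 (-0.55) and Eif2b3 (-0.36), with limma adjusted p = 0.027, 0.017, 0.0032 and 0.036. Eif2b4 (-0.24) and Eif2b5 (-0.14) did not pass. With 1 array omitted 1 to 3 were lower (1 without day 20 replicate 3, 2 without adult replicate 2 or 3 or day 20 replicate 2). Their list, of 30 other stress factors, had 7 lower, 4 higher and a median of -0.03. Ppp1r15a, which directs a phosphatase to eIF2 alpha, was 0.33 higher (limma adjusted p = 0.027). Only Eif2b2 of these 5 genes that passed kept its call with every single array left out; Eif2s1 lost it in 5 of 6 such fits, Eif2b3 and Ppp1r15a in 4 and Eif2b1 in 2, with adjusted p up to 0.084, 0.12, 0.090 and 0.056. Atf6b, the relative of Atf6, was lower by a difference of -0.43 (limma adjusted p = 0.015), where Atf6 itself differed by -0.05.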
